A study of Drosophila melanogaster with 4 samples.

Results

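The JAK-STAT pathway of Drosophila melanogaster was described through 10 named genes in RNA sequencing data from follicle cells of the ovary, the somatic epithelium around the germ line. The genes were picked by name for their place in the pathway out of 15682 genes in the table. They were picked with earlier results of these data known. They were the ligand genes upd1, upd2 and upd3, the receptor genes dome and et, the kinase gene hop, the transcription factor gene Stat92E, and the regulator genes Socs36E, Ptp61F and ken. All 10 were found, with upd1 listed under its older symbol os, and all 10 had an adjusted p. EGFR-activated cells carried UAS-EGFR-lambdatop, an active form of the epidermal growth factor receptor, along with UAS-CD8-GFP, a membrane-bound green fluorescent protein, and were sequenced as 2 libraries. Control cells carried UAS-CD8-GFP without the receptor and were also sequenced as 2 libraries, 4 in all. Every fly was reared at 18 °C, and as an adult it spent 7 to 10 days at 29 °C until its ovaries were taken. The labels name no driver for the UAS transgenes, so the cells that expressed them are not known from these sources.

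In flies, the Unpaired ligands bind the receptor Domeless, the Janus kinase Hopscotch on its inner side phosphorylates Stat92E, and Stat92E then enters the nucleus and acts on target genes. One of its targets, Socs36E, feeds back to restrain the signal. In the ovary, polar cells at the ends of the egg chamber secrete Unpaired, and the pathway is known for its part in stalk formation, border cell specification, patterning of the follicular epithelium and the early follicle lineage. EGFR signalling and JAK-STAT signalling both act on the posterior follicle cells.

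All values are from the authors' deposited table of EGFR-activated against control cells, which gives 1 mean normalised count per gene over the 4 libraries, a log2 fold change with its standard error, and a DESeq2 p-value. Values per library were not analysed here, so no spread between replicates is printed. Each value after ± is the standard error of the DESeq2 fit, not a gene's observed spread between libraries. A fold change is the log2 of EGFR-activated over control, and a call is an adjusted p under 0.05. Egfr, the gene the transgene carries, rose by 1.498 ± 0.35 (adjusted p = 0.000177), and stood at 0.57 with no call (adjusted p = 0.156) when fold changes were centred on those of the ribosomal protein genes. The mean normalised counts summed to 21565892 over all genes.

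Among the 10 pathway genes, 1 rose, 2 fell and 7 did not pass the test in EGFR-activated cells. Stat92E rose about 2.04-fold, the kinase gene hop fell by 49.5% and the short receptor gene et fell by 46.1%. The 3 called genes are 30% of the 10. Over all 9409 genes with an adjusted p, 35.5% were called, with 18% higher and 17.5% lower, so the share among the pathway genes was near that of the whole table. Their median log2 fold change was −0.23, beside 0.06 over all genes with an adjusted p. It turned to 0.10 once a trend of fold change on exonic length was taken out. The log2 fold changes ran between −0.99 for hop and 1.03 for Stat92E. The standard errors of the 10 lay between 0.23 and 0.35, beside a median of 0.28 over genes whose mean reached 50.

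**Figure D1:**
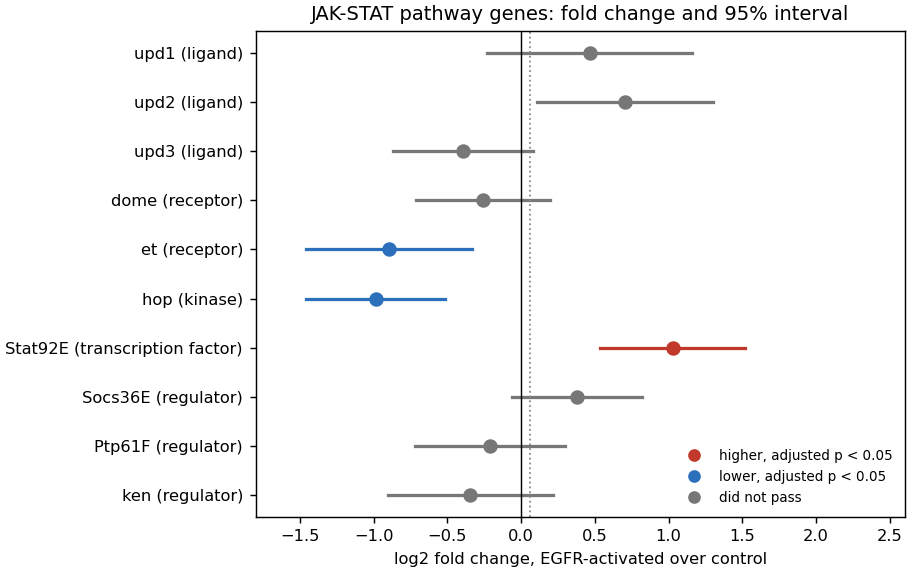
Log2 fold change (horizontal axis, EGFR-activated over control) of the 10 JAK-STAT pathway genes, in the order of their roles from ligand to regulator. Points are the deposited values, bars their 95% intervals, and the dotted line the median of all genes with an adjusted p (0.06); Stat92E lies above 0, hop and et below it, and the other 7 did not pass the test.

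None of the 3 ligand genes passed the test. The gene upd1, which encodes the founding Unpaired ligand made by polar cells, had a mean normalised count of 567. Its log2 fold change was 0.46 ± 0.35 (adjusted p = 0.321), with a 95% interval between −0.23 and 1.16. The gene upd2, whose product is known in flies as a fat body signal of the fed state, had a mean of 194 and a log2 fold change of 0.71 ± 0.30 (adjusted p = 0.0559). Its interval, 0.11 to 1.30, did not reach 0, and its adjusted p lay just outside the threshold. The gene upd3, known as the ligand induced by stress and damage, had the largest mean of the 3 at 1686, and its log2 fold change was −0.39 ± 0.24 (adjusted p = 0.205). The values of upd1 and upd2 turned negative, at −0.47 and −0.22, when all fold changes were centred on those of the ribosomal protein genes.

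The 3 ligand genes are neighbours on the X chromosome, with CG15059, listed at 0 in the table, as the only other protein-coding gene between them in the BDGP6 annotation. Their log2 fold changes did not share a sign. The fold change of upd2 exceeded that of upd3 by 1.10 ± 0.39 on the log2 scale (95% interval 0.34 to 1.86), and that of upd1 exceeded upd3 by 0.86 ± 0.43 (0.02 to 1.70). The value of upd1 was 0.24 ± 0.47 below that of upd2, with an interval between −1.16 and 0.67. These differences were chosen after the values were seen and carry no test, and their standard errors treat the genes as independent. A difference between genes of the same libraries does not change when all fold changes are shifted together.

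The receptors also sit side by side on the X chromosome and on 1 strand. The gene dome encodes Domeless, the signalling receptor, and had a mean normalised count of 3189. Its log2 fold change was −0.26 ± 0.23, short of the threshold (adjusted p = 0.416), and turned to 0.03 once the length trend was taken out. The 95% interval of dome ran between −0.71 and 0.20, a change of −39.0% to 14.6% in EGFR-activated cells. The gene et, eye transformer, encodes a shorter receptor-like protein reported in flies to hold back signalling. It had a mean of 164, the lowest of the 10, and fell by 0.89 ± 0.29 (adjusted p = 0.00795). Its mean and its fold imply about 115 normalised counts in EGFR-activated cells and 213 in control cells, if both groups weigh equally in the mean. Between the receptors, et was 0.64 ± 0.37 below dome on the log2 scale, with a 95% interval between −1.36 and 0.09; after removal of the length trend the difference was −1.03. An exon of et shares 42 bases with Zw on the opposite strand, the gene of glucose-6-phosphate dehydrogenase, which was at −0.56 ± 0.25 (adjusted p = 0.0606). No source used here says whether counting took strand into account, so reads of that stretch cannot be told apart.

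The kinase gene hop encodes the Janus kinase Hopscotch, the only one of the fly. Its mean normalised count was 6124, and its log2 fold change was −0.99 ± 0.24 (adjusted p = 0.000339). The mean and the fold imply about 4111 normalised counts in EGFR-activated cells and 8138 in control cells. No other gene of the BDGP6 annotation overlaps hop. Its fold change lay at the 11.6th percentile of all genes with an adjusted p.

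Stat92E encodes the single STAT transcription factor of the fly, and it was the 1 pathway gene of the 10 that rose. Its mean normalised count was 6709 and its log2 fold change was 1.03 ± 0.25 (adjusted p = 0.00035), at the 92.2nd percentile of all genes with an adjusted p. The mean and the fold imply about 9004 normalised counts in EGFR-activated cells and 4415 in control cells. In the authors' deposited table of transcription factors, Cuffdiff gave a log2 fold change of 1.02 (adjusted p = 0.00165), which differs by 0.0043 from the DESeq2 value in that table. Both tools were applied to the same comparison, so their values are not independent. Stat92E was the only one of the 10 genes among the 40 factors of that table, and it was one of 16 with an adjusted p under 0.01 by both tools. The largest DESeq2 adjusted p in that table is 0.0098, so every factor listed there had a low one. For the RNAi line tested against Stat92E, the authors' deposited table lists the phenotype in early follicle cells as none. That entry was shared by 16 of the 26 factors with a line tested. How far the line lowered Stat92E was not analysed here.

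The kinase and the transcription factor it acts on thus moved in opposite directions on the deposited scale. The fold change of Stat92E exceeded that of hop by 2.01 ± 0.35 on the log2 scale, with a 95% interval between 1.33 and 2.70. This makes the ratio of Stat92E to hop transcripts about 4.04-fold higher in EGFR-activated cells. After removal of a trend of fold change on exonic length the difference was 2.03. Against the receptor dome, Stat92E was higher by 1.29 ± 0.34, a comparison chosen after the values were seen. Against its own feedback target Socs36E it was higher by 0.65 ± 0.34, with an interval between −0.01 and 1.31. That comparison was also chosen after the values were seen. The standard errors of these differences treat the genes as independent.

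None of the 3 regulators passed the test. Socs36E, the feedback inhibitor, had a mean normalised count of 9077, the highest of the 10, and a log2 fold change of 0.38 ± 0.23 (adjusted p = 0.186). Its 95% interval ran between −0.06 and 0.82, a change of −4.36% to 76.9% in EGFR-activated cells. Ptp61F encodes a tyrosine phosphatase that acts against Hop and Stat92E, and its log2 fold change was −0.21 ± 0.26 at a mean of 4635 (adjusted p = 0.570). The gene ken encodes Ken and Barbie, a zinc finger repressor of a subset of Stat92E targets, and was at −0.34 ± 0.28 with a mean of 4320 (adjusted p = 0.368). The intervals of all 3 included 0. Socs36E turned to −0.55 under ribosomal protein centring, and Ptp61F to 0.17 once the length trend was taken out.

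Per kilobase of exon, the order of the mean levels was Socs36E, ken, Stat92E, hop, Ptp61F, upd3, dome, upd1, upd2 and et. Socs36E stood at 2591 normalised counts per kilobase, at the 94.2nd percentile of genes with an adjusted p and a known length. The genes ken, Stat92E and hop followed at 1407, 1288 and 1212 normalised counts per kilobase. Ptp61F and upd3 were almost level at 764 and 759, with dome at 654. The genes upd1, upd2 and et stood at 181, 97.8 and 68.0 normalised counts per kilobase, below the median of 265 over all such genes. These levels are means over both groups with no spread of their own, so no pair of neighbours in the order was tested.

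**Figure D2:**
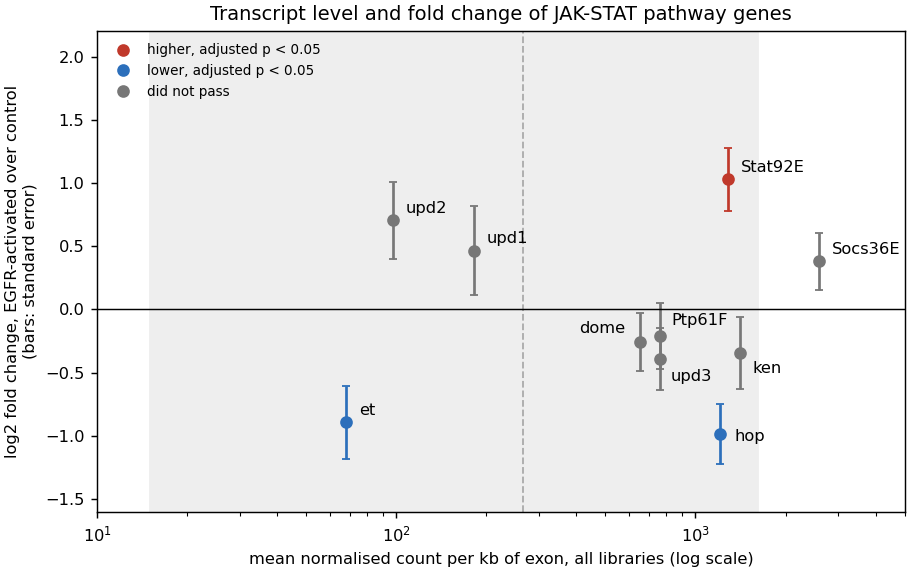
Mean normalised count per kilobase of exon over all 4 libraries (horizontal, log scale) against log2 fold change with its standard error (vertical) for the 10 genes. The grey band spans the 10th to 90th percentile of genes with an adjusted p and the dashed line their median (265); called genes lie on both sides of it, et at 68.0, and hop and Stat92E at 1212 and 1288.

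How many genes were called in each direction moved with the scaling. Centring on the median of all genes with a p-value, 0.01, left 1 higher and 2 lower, where 17.7% of all genes were higher and 17.7% lower. A looser threshold of 0.1 on the deposited values gave 2 higher, with upd2 added, and 2 lower, beside 21.8% higher and 20.3% lower over all genes. Centring on the median of 84 ribosomal protein genes, which lies at 0.93, gave 0 higher and 7 lower of the 10 pathway genes. Under that scaling 1.01% of all genes were called higher and 56.8% lower. Stat92E stood at 0.10 there and no longer passed (adjusted p = 0.760), while hop and et remained lower at −1.92 and −1.82. After removal of the length trend Stat92E stood at 1.34 (adjusted p = 1.66e-06), hop at −0.68 (adjusted p = 0.0205) and et at −1.004 (adjusted p = 0.00311), again 1 higher and 2 lower, beside 11.3% higher and 16.9% lower over the 7773 genes with a length and a mean of at least 50. Of the annotated exonic lengths, that of Stat92E is 5210 bases and that of hop 5055, against 2411 for et and a median of 2073 over genes with an adjusted p.

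**Figure D3:**
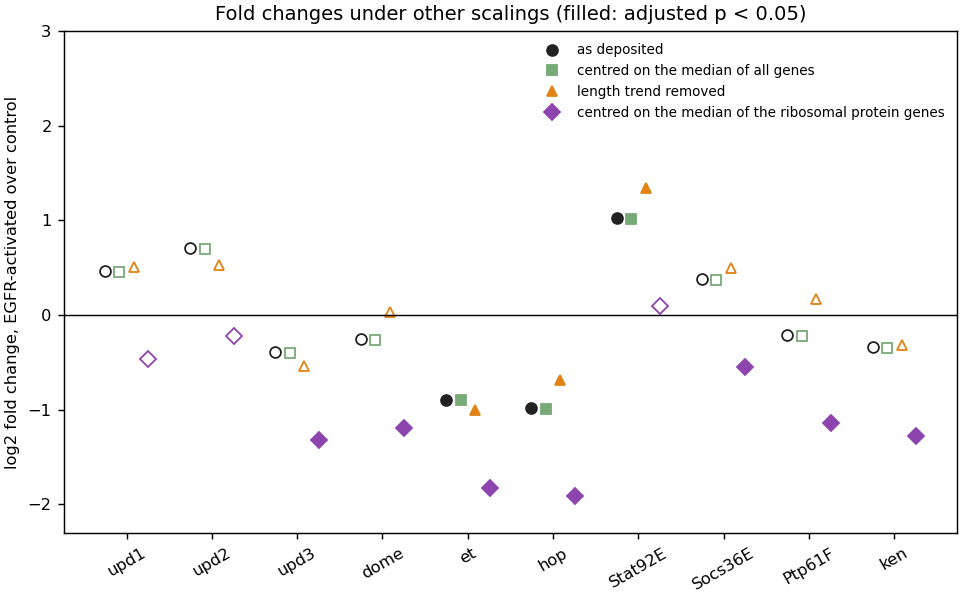
Log2 fold change of each gene (vertical, EGFR-activated over control) as deposited and under 3 other scalings; filled symbols have an adjusted p under 0.05. Stat92E is above 0 under all 4 and passes under 3, hop and et are below 0 and pass under all 4, and 7 of the 10 genes pass on the low side after centring on the ribosomal protein genes.

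Other genes tied to the pathway were counted over 2 lists, 19 regulators and cofactors and 13 genes reported to respond to the pathway in flies. Of the 19 regulators, 5 rose, 4 fell and 10 did not pass, a share called of 47.4% beside 35.5% over all genes. Their median log2 fold change was −0.08. Of the 13 responding genes, 0 rose, 2 fell, 10 did not pass and 1 (TepI) had no adjusted p. Their median was −0.07, and 16.7% of the 12 with an adjusted p were called. The list was not divided by the direction in which each gene is reported to respond. Both lists together had 35.5% of members called, the same share as the whole table.

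Among the inhibitors and modifiers, wdp fell by 1.36 ± 0.18 (adjusted p = 1.40e-12), the largest fall of the 19. It encodes Windpipe, a leucine-rich repeat membrane protein reported in the fly gut to lower the receptor. Socs16D, of the same family as Socs36E, was at −0.76 ± 0.27 (adjusted p = 0.0161). Not4, a ubiquitin ligase linked to the CCR4-NOT complex, fell by 1.03 ± 0.21 (adjusted p = 9.81e-06). The endosomal sorting gene Stam was at −0.62 ± 0.22 (adjusted p = 0.0169). Not4, wdp and Stam also passed after removal of the length trend, while Socs16D did not (−0.47, adjusted p = 0.188).

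On the higher side were both glypican genes, whose cell-surface proteoglycans are reported to help Unpaired spread in the egg chamber. The value of dlp was 1.09 ± 0.37 (adjusted p = 0.0133) and that of dally 0.60 ± 0.25 (adjusted p = 0.0497), while dally turned to −0.33 under ribosomal protein centring. The call of dally was also lost when p-values were adjusted over every gene with one (adjusted p = 0.0665) and when all fold changes were centred on their median (adjusted p = 0.0541), which left 4 regulators higher in each case. The SUMO-conjugating enzyme gene lwr rose by 0.96 ± 0.23 (adjusted p = 0.00029). The cyclin-dependent kinase gene Cdk4 rose by 1.098 ± 0.28 (adjusted p = 0.000727), and its partner CycD was at 0.21 ± 0.25 (adjusted p = 0.562). The suppressor of variegation that encodes heterochromatin protein HP1a was at 0.91 ± 0.29 (adjusted p = 0.00817), or −0.02 under ribosomal protein centring. After removal of the length trend the HP1a gene was at 0.40 and no longer passed (adjusted p = 0.329). The regulator gene Su(var)2-10, at 0.24 as deposited (adjusted p = 0.380), gained a call in that setting at 0.54 (adjusted p = 0.0289). The regulators called higher thus remained 5 there. In the authors' deposited table of factors, the HP1a gene had a Cuffdiff log2 fold change of 0.98 (adjusted p = 0.00356), and its RNAi line is listed with a penetrance of about 25%. None of the 5 called higher as deposited passed under ribosomal protein centring.

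The genes reported to respond to the pathway included H15, a T-box gene, which fell by 1.68 ± 0.29 (adjusted p = 2.32e-07), while its paralog mid was at 0.20 ± 0.29 (adjusted p = 0.644). TepII, a thioester protein gene of immunity, fell by 1.15 ± 0.30 (adjusted p = 0.000789). The zinc finger gene chinmo and the stress gene TotA lay outside the threshold at −0.81 ± 0.36 and 1.11 ± 0.50 (adjusted p = 0.0654 and 0.0676). Closest to the threshold among uncalled genes of both lists was the regulator BRWD3, a bromodomain and WD repeat gene, at −0.39 ± 0.17 (adjusted p = 0.0567). Next after these were vir-1 at 0.43 ± 0.27, E(bx) at −0.28 ± 0.19 and mirr at 0.36 ± 0.25, with adjusted p-values of 0.209 to 0.281. After removal of the length trend chinmo stood at −0.26, TotA at 0.32 and BRWD3 at 0.04, with adjusted p-values of 0.650 to 0.898. In that setting E(bx) turned to 0.22 (adjusted p = 0.425), vir-1 and mirr kept their sign without passing, and H15 and TepII remained lower. The border cell factor gene slbo, named like CycD and mid for its role after the values were seen, was at −0.07 ± 0.33 (adjusted p = 0.894) with a mean normalised count of 190. The 95% interval of slbo ran between −0.72 and 0.57.

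**Figure D4:**
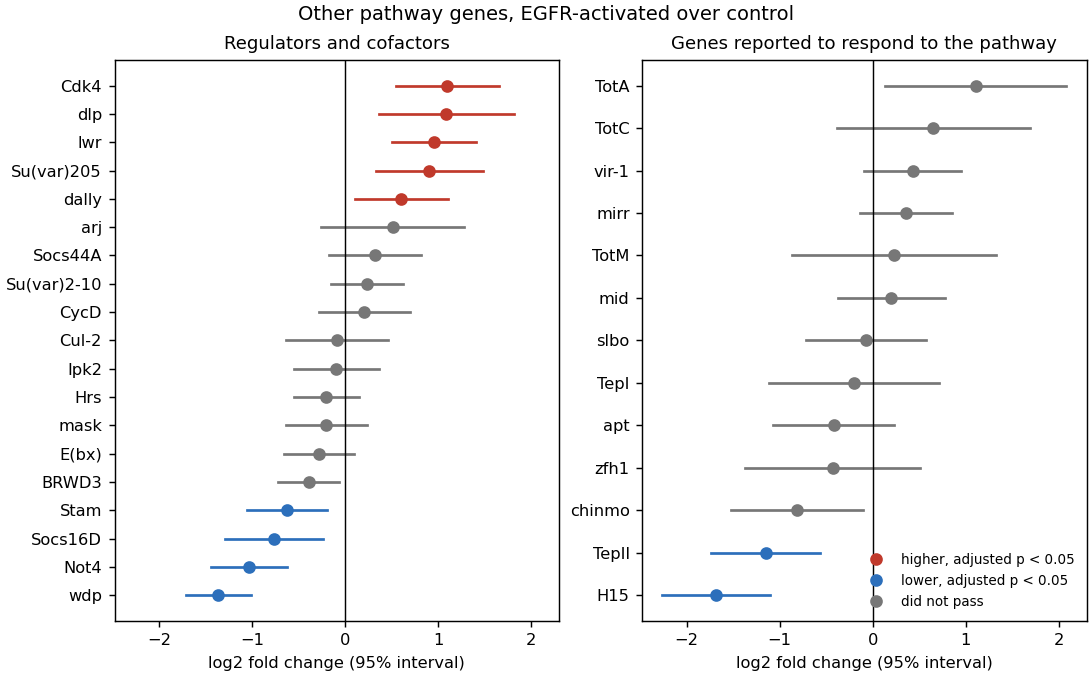
Log2 fold change with 95% interval for 19 regulators and cofactors (left) and 13 genes reported to respond to the pathway (right), sorted by value. Among the regulators 5 rose and 4 fell in EGFR-activated cells, and among the responding genes 2 fell.

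Markers of the cell types that a sample of follicle cells could hold were read beside these values. The follicle cell markers were abundant, with mean normalised counts between 5160 and 113532. Their median log2 fold change as deposited was −0.57, with tj higher, Cad99C lower and 8 of 10 not called. More of them were called once the trend on exonic length was taken out, 2 higher and 5 lower, at a median of −0.68. There br joined tj on the higher side, at 1.28 (adjusted p = 0.0022). Yp3, Vm26Aa, Vm26Ab and Vm34Ca joined Cad99C on the lower side, with values of −1.03 to −1.43 (adjusted p-values of 0.026 to 0.041). Of 12 muscle sheath markers 10 fell, none was at 0, their means lay between 54.0 and 2424 and summed to 7192, and their median was −1.49. Of 5 fat body markers 3 fell and Fbp1 was at 0. Of 7 haemocyte markers 1 fell (srp), with a median of −0.43. The means of He, nimC1 and eater were 1.503, 7.03 and 8.99, those of Hml and Pxn 36.0 and 58.0, and those of crq and srp 6398 and 10078. None of 8 germ line markers passed, with means between 156 and 4500 and a median of 0.26. Of the polar cell markers, neur was at 0.60 ± 0.32 and cas at 0.40 ± 0.39, beside 0.46 ± 0.35 for upd1, while Fas3 was at −0.70 ± 0.33 (adjusted p = 0.0788), and none of the 4 passed. With the length trend removed, neur stood at 0.84 and passed (adjusted p = 0.0327), and Fas3 stood at −0.30 (adjusted p = 0.549). Neither cas nor upd1 passed in that setting. The stalk cell marker bib was at 0.09 ± 0.30 (adjusted p = 0.848). The falls of hop and et stand in libraries in which muscle sheath and fat body markers were lower, and the part of those cells in these results was not tested. In bulk RNA of this kind, fewer cells of a type and less RNA per cell cannot be told apart.

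**Figure D5:**
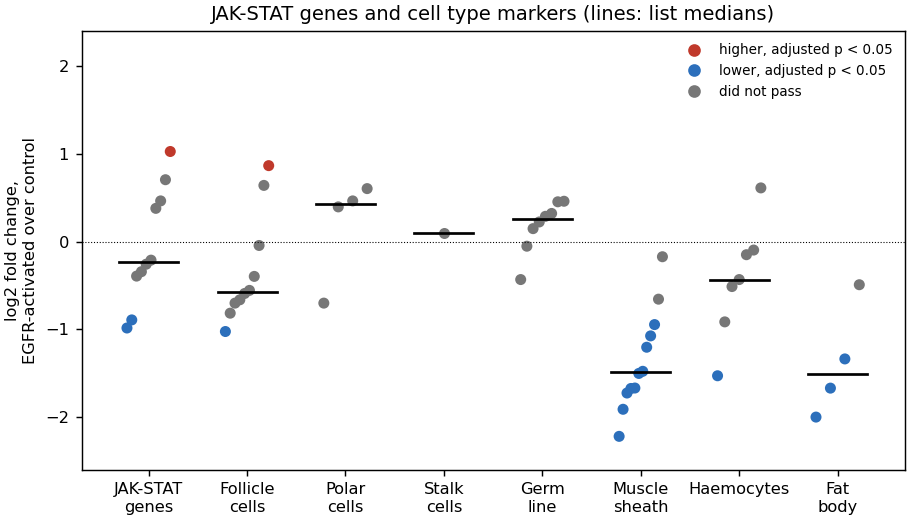
Log2 fold change (vertical, EGFR-activated over control) of the 10 pathway genes and of each list of cell type markers; points are genes and lines are list medians. The muscle sheath and fat body lists lie lowest, with medians of −1.49 and −1.505, and the pathway genes spread around −0.23.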

How the data were processed

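Per the labels' protocols, RNA was isolated with RNAqueous-Micro, selected by oligo-dT and made into ScriptSeq v2 libraries. The authors used TopHat2 (2.0.10), HTSeq (0.6.1), DESeq2 (1.2.10) and build BDGP5, per the submitters' processing notes; their settings are not known from these sources. Per the file headers, the authors deposited a mean normalised count per gene (a signal scaled by size factors), the log2 fold change with its standard error, the Wald score, and raw and adjusted p-values. A second table of the authors gives log2 fold changes and adjusted p-values of Cuffdiff and DESeq2, and other text entries on penetrance. Columns of other samples numbered 0. Left out were 5 rows without a gene.

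Calls use the deposited adjusted p-values at 0.05; 4189 genes had an unadjusted p under 0.05. The design named edgeR for counts per library, which were not analysed here. Intervals are fold change ± a normal 95% range. Exonic lengths came from BDGP6 by symbol or synonym, for 98.6% of genes whose mean reached 50, and the length trend was a lowess curve of span 0.3 (statsmodels 0.14.6), checked on simulated data. Members and lists were chosen with earlier results of these data known. All 10 members are named; other pathway genes are named where called, with the 6 next lowest adjusted p-values; CycD, mid, slbo and TepI were named after their values were seen. The replicates are called biological by the submitters. Depth per library was not analysed here, so precision is given by the standard errors.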

Additional observations from a re-analysis of the deposited data

How the results depend on the processing

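No paired analysis was possible because the tables hold 1 comparison and no values per library, and for the same reason no replicate was left out and no DESeq2 or edgeR refit was run. At an adjusted p threshold of 0.1 the pathway genes called higher numbered 2, with upd2 added to Stat92E, beside 21.8% higher over all genes. At 0.01 the other pathway genes called higher numbered 3, and the share over all genes at 0.01 was not computed. Centred on the ribosomal protein genes, 0 pathway genes were higher and 7 lower, and of the other pathway genes 0 were higher and 21 lower. Over all genes, 1.01% were higher and 56.8% lower under that scaling. Signs turned under that scaling for upd1 (−0.47), upd2 (−0.22) and Socs36E (−0.55), and after removal of the length trend for dome (0.030) and Ptp61F (0.17). The cause was not tested. Of the 10 genes' own values under all alternatives, 69 kept sign and side of the threshold, 1 lost its call (Stat92E, ribosomal protein centring), 5 gained one with their sign kept, and 5 turned sign, of which Socs36E also gained a call on the low side (adjusted p = 0.0275). Other thresholds and other adjustments leave the fold changes as they are, so no sign could turn there. Part of the 69 was thus fixed in advance. Undoing the shrinkage of the fold changes, an alternative chosen after seeing the data that takes the prior from the largest standard error of the table (0.56), enlarged the 10 values slightly, at a shrinkage of 4.31% for Socs36E to 11.4% for upd1. The deposited adjusted p-values were kept there, so no call or sign could change. With 2 libraries per group, the standard errors set how small a change could be called, and a gene that did not pass may still have changed.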

Other observations

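The genes beside the ligand cluster on the X chromosome were read for comparison, a set chosen after the pathway values were seen. CG6023, next to upd1 and on the same strand, was at −0.76 ± 0.26 (adjusted p = 0.0133) with a mean normalised count of 249. On the far side of the cluster, next but one to upd2, Him, a regulator of muscle development, had a mean of 13.5 and a log2 fold change of −0.08 ± 0.55. Beside the receptor genes, Ubqn, a ubiquilin gene next to dome, was at 0.16 ± 0.22 (adjusted p = 0.606) with a mean of 7816. Ssu72, an RNA polymerase phosphatase gene beyond Zw, was at 0.48 ± 0.21 (adjusted p = 0.0568).

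The Turandot genes, which encode small secreted stress proteins and respond to the pathway in the fat body of flies, were low throughout. Of 7, TotF was listed at 0 and the other 6 had a positive log2 fold change, and none passed the test among the 3 with an adjusted p. TotA led with a mean normalised count of 98.1, followed by TotC with 40.3 and a log2 fold change of 0.65 ± 0.53. Only TotA and TotC had means of at least 10, so the values of the others rest on few reads.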
